A study of Mus musculus with 9 samples.

Results

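The genes described here make up the machinery that copies chromosomal DNA in S phase. They comprise 38 listed genes, of which 35 have probes on the array, 61 probes in all, and 32 could be tested among 10251 genes. The members were chosen by gene symbol, and every probe annotated to a listed symbol was taken from the intensity table. Gene expression was measured on 9 mouse Illumina bead arrays, 3 from ES cells, 3 from in vitro derived definitive endoderm (DE) and 3 from in vitro derived anterior foregut cells (AFE). Total RNA came from cells purified by flow cytometry, and the labels do not give the gate. The ES cells were of the 129P2/OlaHsd background and carried no reporter. The DE cells came from R1 ES cells, labelled as a cross of 129X1/SvJ with 129S1/SV-+p+Tyr- cKitlSl-J/+. The AFE cells were of the 129X1/SvJ background. Because each group had a strain of its own, the effects of strain or line and of stage cannot be told apart. All lines were kept on mouse embryonic fibroblasts with LIF, a cytokine that holds mouse ES cells undifferentiated, and the feeders were depleted before differentiation. In the differentiation protocol, cells received 5 nM GSKiXV, an inhibitor of the kinase GSK-3, on day 2, together with 5 µM IDE-1, an inducer of endoderm that was kept on until replating. They were replated on day 6 and then received 500 nM A83-01, which blocks receptors of the TGF-beta family, with 100 nM LDN193189, which blocks BMP receptors. The day on which each group was collected, and whether the replicates were separate cultures, are not stated in the labels. The p-values therefore take in only the variation among these arrays, some of which may be technical.

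Chromosome replication begins in G1, when the origin recognition complex (ORC) with Cdc6 and Cdt1 loads rings of the helicase subunits Mcm2 to Mcm7 onto origins. On entry into S phase, driven by cyclin E and Cdk2, the factors Cdc45, GINS and Mcm10 turn these rings into active helicases, primase and DNA polymerase alpha lay down primers, and polymerases delta and epsilon extend them on the sliding clamp Pcna, which the Rfc complex loads. Fen1 and Lig1 join the fragments of the lagging strand, ribonucleotide reductase and thymidylate synthase supply nucleotides, and Chaf1a and Chaf1b place histones on the new DNA. Many of these genes are transcribed together near the start of S phase by E2F transcription factors, and mouse ES cells are known for a short G1 phase and a large share of cells in S phase.

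RefSeq promoter windows of build GRCm38.p6 were at hand for 32 of the 38 genes, some with several start sites. The 250 bases before each start were searched on both strands for the E2F words TTTCCCGC, TTTGGCGC, TTTCGCGC and TTTGCCGC. At least 1 word was found upstream of 8 of the 32 genes (25%), namely Cdc6, Mcm5, Mcm6, Mcm7, Orc1, Pola1, Rfc3 and Uhrf1, compared with 3.66% of the genes tested on the array and 2.16% of all RefSeq genes in the table. Among the 28 members that were both tested and had a window, the share was 17.9%. With the 50 bases after each start added, 12 of the 32 genes (37.5%) had a word, adding Cdt1, Lig1, Mcm3 and Pold1. The share was then 32.1% of the 28 members tested, 4.45% of the genes tested on the array and 2.6% of all RefSeq genes. The CCAAT box, searched as CCAAT on both strands, lay upstream of 59.4% of the 32 genes, of 53.6% of the 28 members tested, of 41.0% of the genes tested on the array and of 37.5% of all RefSeq genes. The word TTTGAA, the core of the CHR element known from late cell cycle genes, lay upstream of 9.38% of the 32 genes, of 10.7% of the 28 members tested, of 12.7% of the genes tested on the array and of 18.3% of all RefSeq genes. No E2F word overlapped a CCAAT or TTTGAA match. Matches of letters are a description and not evidence of binding. The 3 Mcm promoters with a word before the start are printed. These subunits of a single helicase held 6 of the 11 words found before a start. The E2F words are in capitals and each sequence runs 5′ to 3′ along the gene.
Mcm5: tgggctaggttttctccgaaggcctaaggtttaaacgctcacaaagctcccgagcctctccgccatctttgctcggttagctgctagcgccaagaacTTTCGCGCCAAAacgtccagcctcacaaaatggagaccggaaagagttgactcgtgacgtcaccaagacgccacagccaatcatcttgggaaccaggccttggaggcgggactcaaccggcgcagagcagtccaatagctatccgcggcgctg
Mcm6: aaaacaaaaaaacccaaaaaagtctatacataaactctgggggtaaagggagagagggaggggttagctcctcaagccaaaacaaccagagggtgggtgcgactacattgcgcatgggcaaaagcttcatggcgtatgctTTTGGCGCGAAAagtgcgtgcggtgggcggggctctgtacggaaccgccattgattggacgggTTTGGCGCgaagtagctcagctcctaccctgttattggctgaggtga
Mcm7: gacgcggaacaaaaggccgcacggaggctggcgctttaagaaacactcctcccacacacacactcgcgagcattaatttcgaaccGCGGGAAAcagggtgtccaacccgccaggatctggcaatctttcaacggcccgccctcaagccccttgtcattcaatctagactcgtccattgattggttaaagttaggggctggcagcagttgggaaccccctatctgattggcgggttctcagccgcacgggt
The Mcm5 sequence lies at chr8:75109259-75109508 on the plus strand, and its words TTTCGCGC and TTTGGCGC begin 153 and 149 bases before the start and overlap. The Mcm6 sequence lies at chr1:128359706-128359955 on the minus strand, with an overlapping pair that begins 110 and 106 bases before the start and another word at 47 bases. The Mcm7 sequence lies at chr5:138171884-138172133 on the minus strand and holds TTTCCCGC at 165 bases. The window of another Mcm7 start, at chr5:138171267-138171516, held 0 E2F words and is not printed.

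The groups carried the markers of their labels. All 7 ES cell markers tested, such as Pou5f1, were lower in DE and in AFE than in ES cells. All 7 endoderm markers, such as Sox17, were higher in DE than in ES cells, and 4 of the 5 foregut genes tested, Pax1, Isl1, Sox2 and Irx3, were higher in AFE than in DE. Of the other foregut markers on the list, Pax9 was above background on 2 arrays and the 2 Nkx2-1 probes on 1 and 0. Between 12628 and 14352 probes were above background on an array, with median intensities of 93.9 to 151. Within each group, replicates 1 and 2 were more alike (r across genes 0.987 to 0.995) than either was to replicate 3 (0.931 to 0.979). ES 3, alone on a second slide, read higher than ES 1 and ES 2 for 6 of 7 feeder fibroblast genes. DE 3 read higher than DE 1 and DE 2 for 6 of 7 endothelial and blood genes, and lower for all 7 endoderm markers. AFE 3 had the fewest probes above background, 12628. The mean level of the ES cell markers was 7.40 on AFE 2, against 5.53 on AFE 1 and 5.69 on AFE 3, and AFE 2 was also the AFE array with the highest mean of the replication genes. The part of this in the results was not tested. Over the members tested, the median difference of replicate 3 from the mean of replicates 1 and 2 was -0.09 in ES cells, 0.05 in DE and -0.85 in AFE on the log2 scale, so that results on AFE are given with and without AFE 3.

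Of the 32 replication genes tested, 13 fell in DE against ES cells, 8 of them at least 2-fold, 0 rose and 19 were not called. The 3 groups differed for 14 of the 32 genes (43.8%), a smaller share than the 55.7% of all genes tested (moderated F-test of limma). A gene was called when its adjusted p (limma, Benjamini-Hochberg over all 10251 genes) was under 0.05; over all genes tested, 21.7% were called lower in DE, 13.7% called lower at 2-fold or more, and 22.2% called higher. At an unadjusted p under 0.05 the members' counts were 14 lower and 0 higher. The genes that fell were Orc2, Cdt1, Mcm2, Mcm3, Mcm5, Mcm7 and Mcm10, which load and activate the helicase, Pold1, Rfc4, Rfc5, Lig1 and Ung, which act at the fork or in repair, and the cyclin gene Ccne1. The median log2 difference over the 32 genes was -0.53, against 0.01 over all genes tested. For 19 of the 32 genes every DE array lay below every ES array, a pattern seen in 28.6% of all genes tested. Leaving out ES 1 or ES 2 lowered the count of genes that fell to 8, and in the authors' processed table, whose ES columns are in doubt, it was 3. In bulk RNA, fewer cells in S phase and less RNA per cell cannot be told apart. Feeder fibroblast genes moved the same way, with 4 of 7 lower in DE, the mean log2 level of the list running from 4.93 to 6.04 over the DE arrays and from 8.23 to 9.39 over the ES arrays, and Lox not above background on any DE array. Their part in the result was not tested.

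Levels in AFE lay between those of the other stages for 16 of the 32 genes (50%), all with group means in the order ES, AFE, DE, an order that 19.8% of all genes tested had. Another 8 ran in the order ES, DE, AFE (25%, and 15.5% of all genes), and 5 had their highest mean in AFE and their lowest in DE (15.6%, and 14.3% of all genes). Without AFE 3, an alternative chosen after seeing the data, these counts were 15, 4 and 10 genes in the same order, and 20.3%, 14.7% and 14.6% of all genes had these orders. Set against DE, 3 of the 32 genes rose in AFE, Pold1, Rfc2 and Rfc5, and 0 fell, while 12.9% of all genes tested were called higher and 10.1% lower. At an unadjusted p under 0.05, 7 were higher and 0 lower. The median log2 difference of AFE minus DE was 0.32, against 0.07 over all genes tested, and without AFE 2 it was 0.14, against 0.06. Set against ES cells, 1 gene, Rfc2, rose in AFE and 10 fell, with 22.8% of all genes tested called higher and 19.3% lower, and the median was -0.47, against 0.08. The count of rises over DE was 1 without any 1 of DE 1, DE 2, AFE 1 or AFE 2, and that of falls against ES cells 5 without ES 1 or ES 2. Under median scaling 1 gene rose over DE.

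The comparison with DE depended on AFE 3. AFE 3 was set apart because these same genes read low on it, so leaving it out had to raise most of them in AFE. It also narrowed the spread shared by all groups for genes such as Pole, Rrm2 and Tyms, which bears on DE against ES cells too. Calls without AFE 3, here and for single genes below, are therefore a description and not a test. Without AFE 3, 12 of the 32 genes rose in AFE over DE and 0 fell, where the background was 12.9% and 9.97%. At an unadjusted p under 0.05 these counts were 15 and 0, and the median was 0.46. The genes called without AFE 3 were Mcm5, Mcm10, Pold1, Rfc2, Rfc5, Rrm1, Rrm2, Tyms, Ccne1, Chaf1a, Chaf1b and Uhrf1. Against ES cells, 3 genes were then higher, Rfc2, Chaf1a and Chaf1b (background 21.3%), and 8 lower (background 18.0%), and the median moved to -0.16. Without DE 3, the counts for AFE over DE were 5 higher (background 17.0%) and 1 lower, Mcm6 (background 14.5%).

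**Figure D1:**
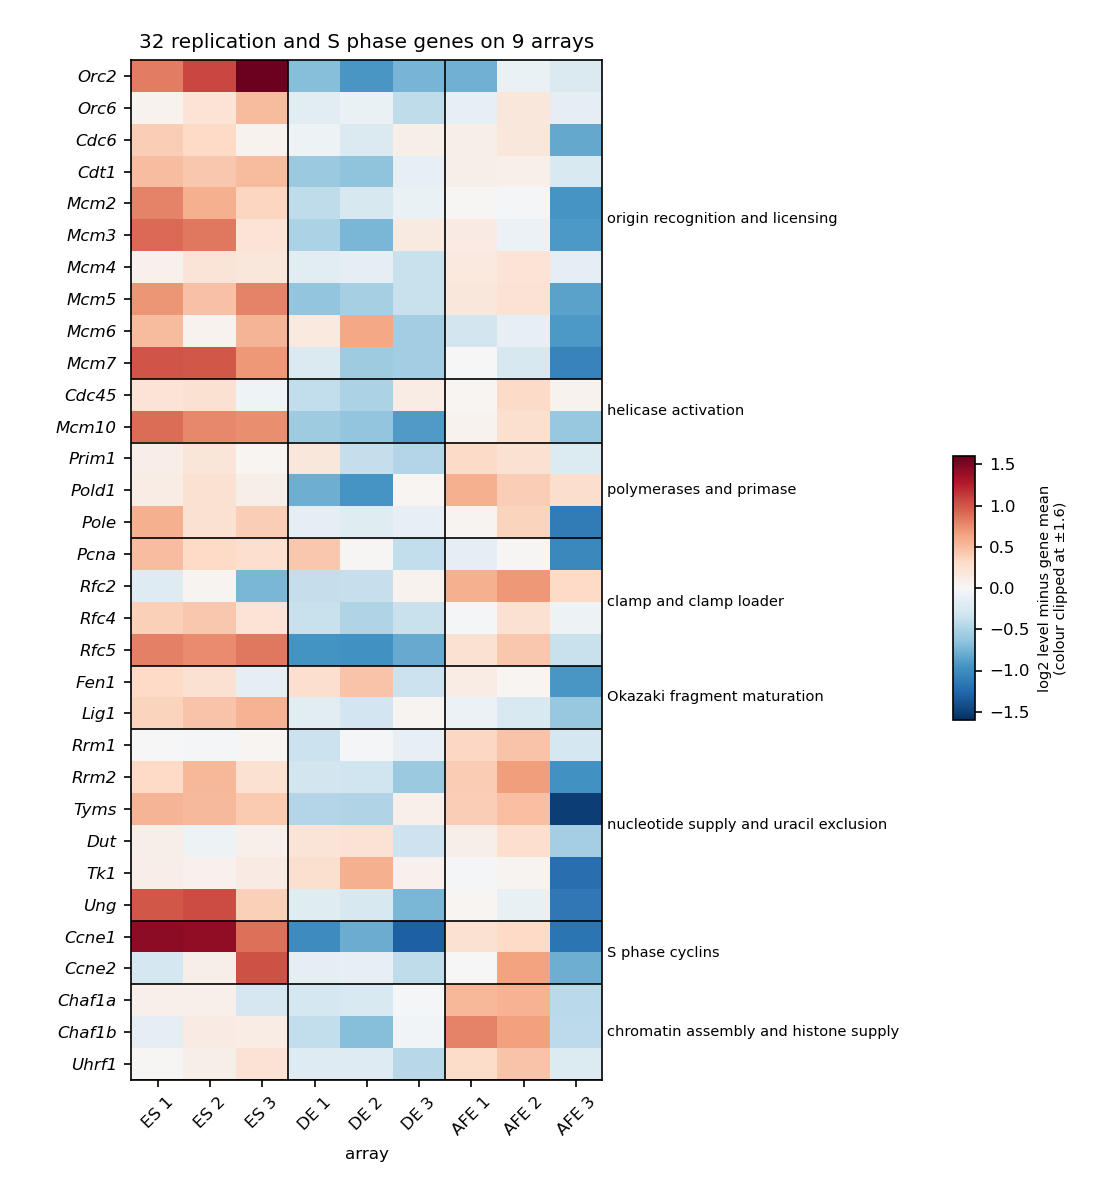
Each row is a gene and each column an array, and the colour is the log2 level minus the gene's mean over the 9 arrays, clipped at 1.6 either way. The ES columns are mostly red and the DE columns mostly blue, and AFE 3 is blue in most rows while AFE 1 and AFE 2 are near or above the mean.

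**Figure D2:**
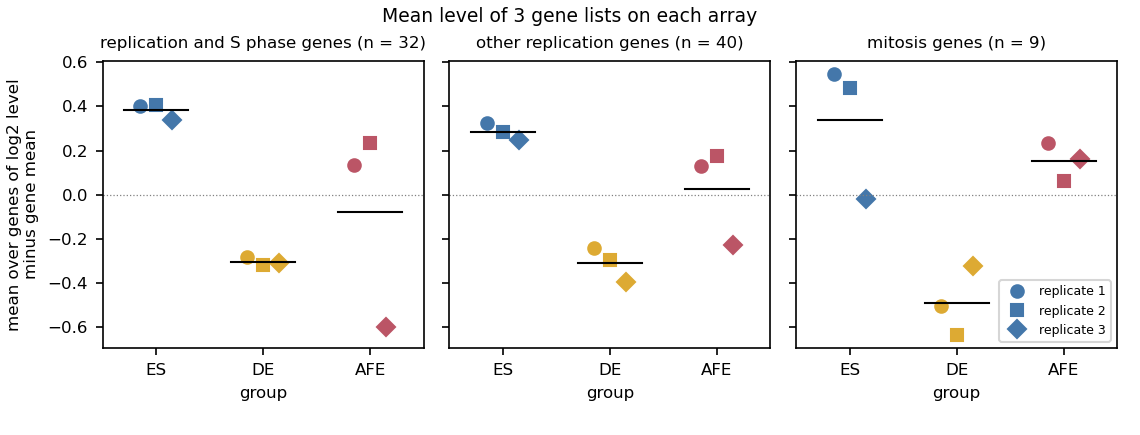
Each point is an array, giving the mean over a gene list of the log2 level minus the gene's mean, and the horizontal bar is the mean of a group. For the 32 replication and S phase genes the means were 0.40, 0.41 and 0.34 in ES cells, -0.28, -0.32 and -0.31 in DE, and 0.13, 0.23 and -0.60 in AFE, whereas for mitosis genes AFE 3 lay between AFE 1 and AFE 2.

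Among the 10 genes of origin recognition and licensing tested, 6 fell in DE against ES cells, and in AFE against ES cells 5 fell, with 0 called in AFE against DE by limma (1 at an unadjusted p under 0.05). Over all genes tested, 21.7% were called lower in DE and 19.3% lower in AFE against ES cells, and 12.9% higher in AFE over DE. The same shares stand beside each count by function below, and a count over so few genes says little about a function. Levels are normalised log2 intensities and compare arrays for a gene, not genes with each other. Orc2, an ORC subunit, read 7.08, 7.33 and 7.84 in ES cells, 5.59, 5.34 and 5.52 in DE and 5.50, 6.16 and 6.03 in AFE. Every DE and AFE array lay below every ES array. With errors given as SE over 3 arrays a group, the log2 differences were -1.93 ± 0.25 (adjusted p = 0.000276) for DE minus ES and -1.52 ± 0.25 (adjusted p = 0.00111) for AFE minus ES. A dimmer Orc2 probe, above background on 5 arrays, did not show these falls, with differences of 0.08 and 0.48, neither called. In raw intensity the probe used read 128 to 151 on the DE and AFE arrays, whose median intensities were 115 to 151. Cdt1, which brings Mcm rings to the origin, read 12.67, 12.61 and 12.68 in ES cells, 11.58, 11.52 and 12.04 in DE and 12.27, 12.26 and 11.92 in AFE. It was lower in DE than in ES cells at a log2 difference of -0.94 ± 0.19 (adjusted p = 0.00374), and AFE minus ES, at -0.50 ± 0.19 (adjusted p = 0.0612), was not called although no array overlapped. Orc6, another ORC subunit, differed by -0.49 ± 0.19 (adjusted p = 0.0621) in DE minus ES. Cdc6, the ATPase that works with Cdt1, read 10.99, 10.90 and 10.64 in ES cells, 10.51, 10.36 and 10.69 in DE and 10.68, 10.77 and 9.78 in AFE. The DE and ES arrays overlapped for Cdc6, and the low value was that of AFE 3.

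Of the 6 helicase subunits, 4 fell in DE against ES cells, and Mcm4 and Mcm6 were not called. Mcm7 had the largest fall of them, reading 9.94, 9.92 and 9.63 in ES cells, 8.70, 8.37 and 8.38 in DE and 8.92, 8.68 and 7.86 in AFE. It was lower at a log2 difference of -1.35 ± 0.27 (adjusted p = 0.00327) in DE minus ES and at -1.34 ± 0.27 (adjusted p = 0.00353) in AFE minus ES, and DE and AFE differed by 0.0035 ± 0.27. Mcm5 read 13.68, 13.45 and 13.77 in ES cells, 12.35, 12.45 and 12.62 in DE and 13.15, 13.20 and 12.13 in AFE. The 3 DE arrays lay below all ES arrays, AFE 1 and AFE 2 lay in between, and AFE 3 lay below every DE array. The difference was -1.16 ± 0.28 (adjusted p = 0.00829) for DE minus ES, and for AFE minus DE it was 0.35 ± 0.28 (adjusted p = 0.397) with all arrays and 0.71 ± 0.17 (adjusted p = 0.0236) without AFE 3. Mcm2, at 12.07, 11.85 and 11.63 in ES cells, 10.87, 11.03 and 11.18 in DE and 11.30, 11.26 and 10.33 in AFE, was lower in DE than in ES cells at a log2 difference of -0.82 ± 0.27 (adjusted p = 0.0324) and in AFE at -0.89 ± 0.27 (adjusted p = 0.0248). Mcm3 was lower at a log2 difference of -1.02 ± 0.33 (adjusted p = 0.0327) in DE and at -0.96 ± 0.33 (adjusted p = 0.0439) in AFE, both against ES cells, with levels of 10.55, 10.48 and 9.86 in ES cells, 9.13, 8.91 and 9.78 in DE and 9.76, 9.54 and 8.71 in AFE. The calls for Mcm2 and Mcm3 in DE were lost without ES 1, ES 2, DE 1 or DE 2. Mcm4 was not called with this probe, reading 13.50, 13.64 and 13.61 in ES cells, 13.27, 13.28 and 13.09 in DE and 13.60, 13.66 and 13.29 in AFE. Its difference for DE minus ES was -0.37 ± 0.17 (adjusted p = 0.0981) and for AFE minus ES -0.07 ± 0.17 (adjusted p = 0.762). Mcm6, at 12.24, 11.80 and 12.29 in ES cells, 11.89, 12.36 and 11.18 in DE and 11.45, 11.61 and 10.82 in AFE, had overlapping DE and ES arrays and a difference of -0.30 ± 0.32 (adjusted p = 0.486) for DE minus ES. AFE minus ES for Mcm6 was -0.81 ± 0.32 (adjusted p = 0.0682), with each AFE array below each ES array. The call for Mcm5 in AFE against ES cells, -0.81 ± 0.28 (adjusted p = 0.0428), was lost without any 1 of ES 1, ES 2, ES 3, DE 1, DE 2 or AFE 3, that for Mcm2 without ES 1 or ES 2, and that for Mcm3 without ES 1, ES 2, DE 1, AFE 2 or AFE 3.

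Of the genes of helicase activation, Mcm10 and Cdc45 were tested. Mcm10, which joins the helicase as it is switched on, read 12.46, 12.33 and 12.30 in ES cells, 10.99, 10.93 and 10.65 in DE and 11.62, 11.82 and 10.95 in AFE. AFE 1 and AFE 2 lay above every DE array, AFE 3 lay within the DE range, and all of them lay below the ES arrays. Mcm10 was lower at a log2 difference of -1.51 ± 0.23 (adjusted p = 0.000809) in DE minus ES and at -0.90 ± 0.23 (adjusted p = 0.0124) in AFE minus ES. For AFE minus DE it differed by 0.61 ± 0.23 (adjusted p = 0.0921), and by 0.86 ± 0.17 (adjusted p = 0.0117) without AFE 3. Cdc45, the companion of the Mcm ring at the fork, read 9.82, 9.84 and 9.53 in ES cells, 9.21, 9.09 and 9.72 in DE and 9.63, 9.90 and 9.65 in AFE. Its groups overlapped and the difference of DE minus ES was -0.39 ± 0.21 (adjusted p = 0.16). Without DE 3, which was the highest of the DE arrays, Cdc45 was called lower in DE than in ES cells and higher in AFE than in DE. Gins1 and Gins2, subunits of the GINS complex, had no probe in the table used and are not analysed here.

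Among polymerases and primase, 1 of the 3 genes tested was called. Pold1, the catalytic subunit of polymerase delta, read 11.41, 11.54 and 11.38 in ES cells, 10.51, 10.35 and 11.33 in DE and 11.87, 11.68 and 11.58 in AFE. Every AFE array lay above every ES and DE array, and DE 1 and DE 2 were lower than DE 3 by a wide margin. Pold1 was higher in AFE than in DE by 0.98 ± 0.25 (adjusted p = 0.0208) and lower in DE than in ES cells at -0.72 ± 0.25 (adjusted p = 0.0423). Both calls rested on few arrays, since the first was lost without DE 1, DE 2, AFE 1 or AFE 2, and the second without any 1 of the arrays other than DE 3 and AFE 3. Both were also lost with only the 6 arrays compared and in the authors' processed table, and the second with no filter or with the replicate block. Pole, the catalytic subunit of polymerase epsilon, read 9.61, 9.28 and 9.43 in ES cells, 8.88, 8.84 and 8.91 in DE and 9.09, 9.40 and 7.92 in AFE. All DE arrays lay below all ES arrays, and the spread of AFE came from AFE 3. The difference of DE minus ES was -0.56 ± 0.33 (adjusted p = 0.199), and without AFE 3, which tightens the shared estimate of the spread, -0.56 ± 0.16 (adjusted p = 0.0196). Prim1, the primase that makes the RNA primer, read 7.78, 7.87 and 7.71 in ES cells, 7.85, 7.29 and 7.21 in DE and 7.98, 7.91 and 7.45 in AFE and was not called in any comparison. The probe of Pola1, the catalytic subunit of polymerase alpha, was above background on 0 arrays.

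Of the 4 genes of the clamp and its loader tested, 2 fell in DE against ES cells and 2 rose in AFE over DE (21.7% and 12.9% of all genes tested). Rfc5, a subunit of the loader, read 11.31, 11.25 and 11.35 in ES cells, 9.54, 9.53 and 9.69 in DE and 10.74, 10.93 and 10.15 in AFE, the 3 groups lying apart with no overlap. It was lower at -1.71 ± 0.21 (adjusted p = 0.000233) in DE minus ES, a fall of 3.28-fold, and higher by 1.02 ± 0.21 (adjusted p = 0.009) in AFE minus DE. AFE remained below ES cells at a log2 difference of -0.70 ± 0.21 (adjusted p = 0.0255), a call lost without ES 1, ES 2 or ES 3. The call of Rfc5 in AFE over DE was lost under median scaling and in the authors' processed table. Rfc2, another loader subunit, read 11.82, 12.08 and 11.31 in ES cells, 11.65, 11.66 and 12.08 in DE and 12.60, 12.73 and 12.36 in AFE. Every AFE array lay above all others, while DE and ES arrays overlapped. Rfc2 was the 1 member called higher in AFE against both other stages, by 0.76 ± 0.24 (adjusted p = 0.0441) over DE and 0.83 ± 0.24 (adjusted p = 0.0191) over ES cells. Its call over DE was lost without ES 1, DE 1, DE 2, AFE 1 or AFE 2, and its call over ES cells without ES 3, AFE 1 or AFE 2. Both calls of Rfc2 were also lost under median scaling and in the authors' processed table. The call over DE was further lost under cyclic loess, with no filter, with the replicate block and with only the 6 arrays compared, in all 11 of the 22 alternatives. Rfc4 read 11.69, 11.74 and 11.53 in ES cells, 10.96, 10.83 and 10.96 in DE and 11.29, 11.56 and 11.23 in AFE and was lower in DE than in ES cells at a log2 difference of -0.74 ± 0.16 (adjusted p = 0.00552). Its AFE arrays lay above all DE arrays, with a difference of 0.45 ± 0.16 (adjusted p = 0.0791). Pcna, the clamp itself and the usual marker of S phase cells, read 11.20, 11.03 and 10.98 in ES cells, 11.13, 10.72 and 10.31 in DE and 10.56, 10.72 and 9.67 in AFE. DE and ES arrays overlapped, with a difference of -0.35 ± 0.30 (adjusted p = 0.382), and AFE minus ES was -0.75 ± 0.30 (adjusted p = 0.0718) with no overlap. Rfc3 had no probe in the table used and is not analysed here.

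For the maturation of Okazaki fragments, 2 genes were tested, and 1 of them was called. Lig1, the ligase that seals the lagging strand, read 11.78, 11.88 and 11.98 in ES cells, 11.26, 11.11 and 11.47 in DE and 11.33, 11.17 and 10.82 in AFE. It was lower at a log2 difference of -0.60 ± 0.19 (adjusted p = 0.0285) in DE minus ES and at -0.77 ± 0.19 (adjusted p = 0.00948) in AFE minus ES, with no overlap in either. The first of these calls was lost without any 1 of ES 1, ES 2, ES 3, DE 1 or DE 2. The second was lost with the mean of the gene's probes and in the authors' processed table. Fen1, the flap nuclease that trims each fragment before Lig1 acts, read 12.01, 11.93 and 11.53 in ES cells, 11.96, 12.14 and 11.34 in DE and 11.81, 11.72 and 10.76 in AFE. The DE and ES groups overlapped for Fen1, and their difference was -0.008 ± 0.32.

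Among the 6 genes of nucleotide supply and uracil exclusion, Ung alone was called with all 9 arrays, and 0 were called in AFE against DE by limma (0 at an unadjusted p under 0.05). Ung, the glycosylase that removes uracil from DNA, read 12.63, 12.67 and 12.01 in ES cells, 11.43, 11.37 and 10.91 in DE and 11.66, 11.52 and 10.49 in AFE. It was lower at a log2 difference of -1.20 ± 0.33 (adjusted p = 0.0155) in DE minus ES and at -1.21 ± 0.33 (adjusted p = 0.0152) in AFE minus ES, and both calls were lost without ES 1 or ES 2. Rrm2, the small subunit of ribonucleotide reductase that is made in S phase, read 10.10, 10.31 and 10.02 in ES cells, 9.48, 9.46 and 9.19 in DE and 10.19, 10.45 and 8.81 in AFE. AFE 1 and AFE 2 lay near the ES arrays and above all DE arrays, and AFE 3 lay below every other array. The difference of AFE minus DE was 0.44 ± 0.37 (adjusted p = 0.428) with AFE 3 and 0.94 ± 0.18 (adjusted p = 0.0103) without it. Tyms, thymidylate synthase, showed the same split, reading 12.23, 12.21 and 12.11 in ES cells, 11.22, 11.21 and 11.77 in DE and 12.08, 12.17 and 10.19 in AFE. AFE minus DE was 0.07 ± 0.46 (adjusted p = 0.926) with AFE 3 and 0.72 ± 0.21 (adjusted p = 0.0414) without it. DE minus ES was -0.78 ± 0.46 (adjusted p = 0.196) for Tyms and -0.77 ± 0.37 (adjusted p = 0.119) for Rrm2, neither of them called, although every DE array lay below every ES array for both. Without AFE 3 both were called lower in DE, at unchanged differences with a smaller SE of 0.19 for Tyms and 0.17 for Rrm2. Those calls came from the narrower shared spread once this array was left out, and are a description and not a test. Rrm1, the large subunit of the reductase, stood at 11.12, 11.23 and 10.50 in AFE and 10.44, 10.75 and 10.64 in DE, a difference of 0.34 ± 0.21 (adjusted p = 0.285), and of 0.56 ± 0.16 (adjusted p = 0.0416) without AFE 3. Tk1, the thymidine kinase of the salvage route, had every AFE array below every DE array, at 10.25, 10.33 and 9.07 in AFE and 10.53, 10.84 and 10.35 in DE, and the difference of -0.69 ± 0.31 (adjusted p = 0.143) was not called. Dut, the enzyme that keeps dUTP low, read 7.86, 7.69 and 7.86 in ES cells, 7.98, 8.01 and 7.45 in DE and 7.87, 8.04 and 7.23 in AFE and overlapped in every comparison.

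Both cyclin E genes were tested. Ccne1, the cyclin E gene whose product activates Cdk2 at the start of S phase, had the largest fall of all members, reading 10.91, 10.89 and 10.36 in ES cells, 8.47, 8.68 and 8.18 in DE and 9.73, 9.79 and 8.31 in AFE. It was 4.84-fold lower in DE than in ES cells, a log2 difference of -2.28 ± 0.38 (adjusted p = 0.00119), with no overlap. AFE 1 and AFE 2 lay between the DE and ES arrays and AFE 3 lay within the DE range. AFE minus ES was -1.44 ± 0.38 (adjusted p = 0.0128), and AFE minus DE was 0.83 ± 0.38 (adjusted p = 0.142) with AFE 3 and 1.32 ± 0.23 (adjusted p = 0.00703) without it. Ccne2, the second cyclin E gene, read 7.59, 7.96 and 8.89 in ES cells, 7.72, 7.74 and 7.47 in DE and 7.87, 8.52 and 7.09 in AFE. ES 3 was its highest array and AFE 3 its lowest, the groups overlapped, and DE minus ES was -0.50 ± 0.40 (adjusted p = 0.335).

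Of the 3 genes of chromatin assembly tested, 0 were called by limma with all 9 arrays in any comparison, and at an unadjusted p under 0.05 the counts were 1 higher in AFE against DE and 0 otherwise. Chaf1b, the middle subunit of chromatin assembly factor 1, read 10.65, 10.94 and 10.93 in ES cells, 10.41, 10.14 and 10.77 in DE and 11.60, 11.47 and 10.40 in AFE. AFE 1 and AFE 2 lay above every other array, and AFE 3 lay within the DE range. AFE minus DE was 0.72 ± 0.31 (adjusted p = 0.131) with AFE 3 and 1.10 ± 0.22 (adjusted p = 0.0107) without it. Chaf1a, the large subunit, read 10.26, 10.27 and 9.92 in ES cells, 9.90, 9.94 and 10.17 in DE and 10.71, 10.74 and 9.75 in AFE. AFE minus DE was 0.40 ± 0.27 (adjusted p = 0.325) with AFE 3 and 0.72 ± 0.18 (adjusted p = 0.0253) without it. Uhrf1, which brings the maintenance methyltransferase to newly copied DNA, read 13.12, 13.20 and 13.34 in ES cells, 12.90, 12.90 and 12.66 in DE and 13.39, 13.56 and 12.88 in AFE. AFE minus DE for Uhrf1 was 0.46 ± 0.21 (adjusted p = 0.138) with AFE 3 and 0.66 ± 0.17 (adjusted p = 0.0272) without it. The probe of Slbp, which binds the end of histone messages, was above background on 0 arrays, as was that of Orc1.

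**Figure D3:**
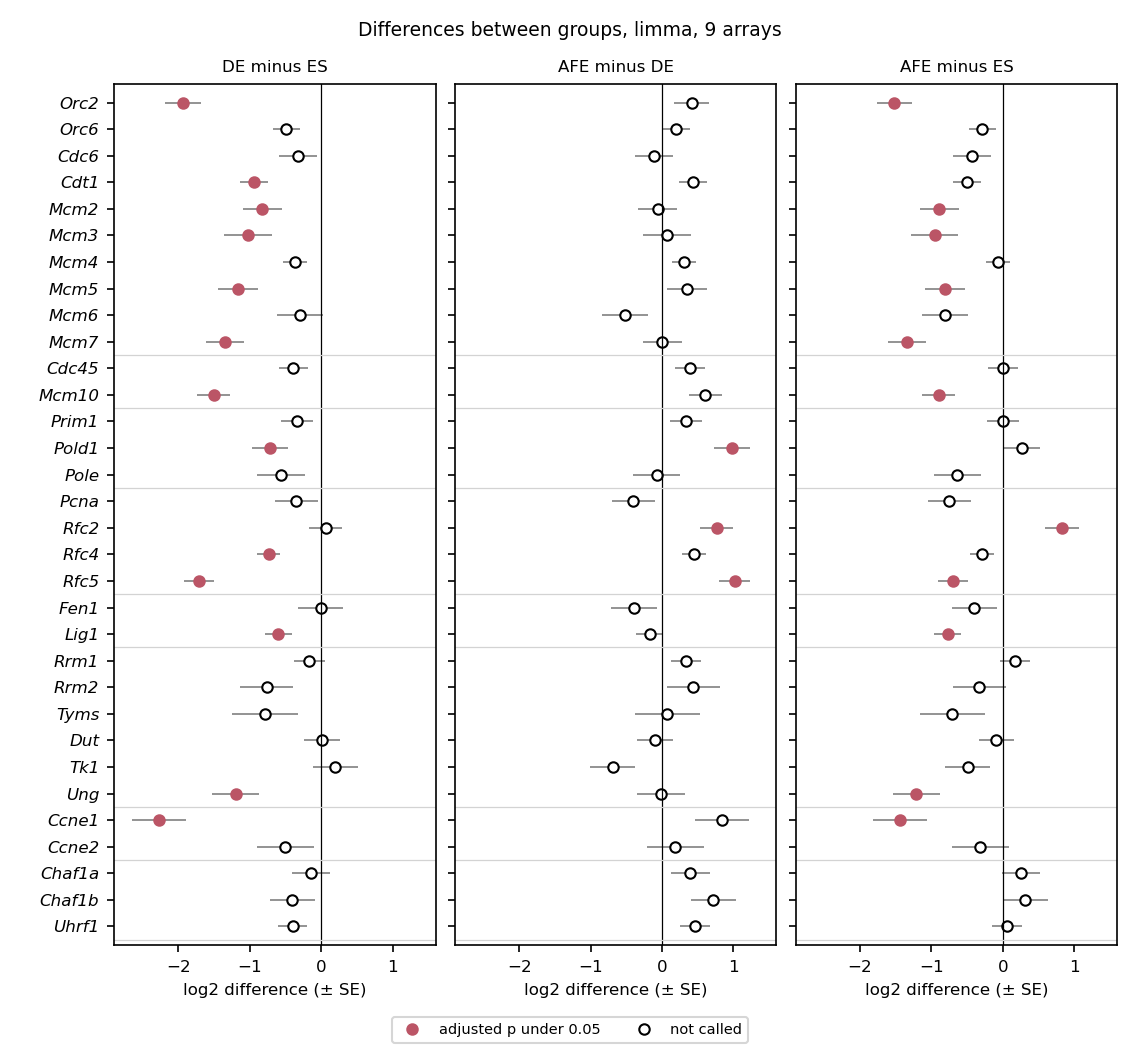
Each point is a log2 difference between group means with its SE, filled where the adjusted p was under 0.05, for the 32 genes in the order of their functions. The first panel holds 13 filled points, all left of 0, the second 3, all right of 0, and the third 10 left of 0 and 1, Rfc2, right of it.

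On AFE 3, 30 of the 32 genes lay below both other AFE arrays, whereas 40.5% of all genes tested did, and 10 were at least 2-fold below their mean, whereas 4.15% of all genes tested were. The median difference of AFE 3 from the mean of the other arrays was -0.85 over the members and -0.0026 over all genes tested. The largest differences were those of Tyms (-1.93), Rrm2 (-1.50), Ccne1 (-1.46), Pole (-1.33) and Tk1 (-1.22), genes of nucleotide supply, S phase entry and leading strand synthesis. Orc2 (0.20) and Cdc45 (-0.11) lay between AFE 1 and AFE 2. By function, the medians were -1.28 for the 2 cyclins, -1.16 for the 6 genes of nucleotide supply, -0.98 for the 3 of chromatin assembly, -0.82 for the 10 of licensing, -0.72 for the 2 of Okazaki fragment maturation, -0.50 for the 4 of the clamp and its loader, -0.49 for the 3 of polymerases and primase and -0.44 for the 2 of helicase activation. Of the 55 probes tested, 51 lay below both other arrays on AFE 3. Under 8 other ways of processing the intensities, 28 to 31 of the 31 to 35 members then tested lay below and the median ran from -0.96 to -0.72. Of 40 other replication genes tested, 32 lay below both other AFE arrays and 5 above, with a median of -0.44. Among them 5 were at least 2-fold lower than the mean of AFE 1 and AFE 2, and 2 at least 2-fold higher. Of 24 genes that control entry into S phase, 13 lay below and 10 above, with a median of -0.15. The 9 mitosis genes tested did not share the pattern. Their median was -0.06, with 2 above both other AFE arrays, 4 below and 3 between. Their differences of AFE 3 from the mean of AFE 1 and AFE 2 ran from -0.32 to 0.51. Beside this, AFE 3 also read lower than AFE 1 and AFE 2 for 5 of 7 endothelial and blood genes and 5 of 7 feeder fibroblast genes, and for 3 of the 5 foregut genes. The mean level of the endothelial and blood list was 5.14 on AFE 3 and 6.12 to 7.42 on the others, and that of the feeder list 5.30 on AFE 3 and 6.37 on both others. The part of these in the result was not tested.

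**Figure D4:**
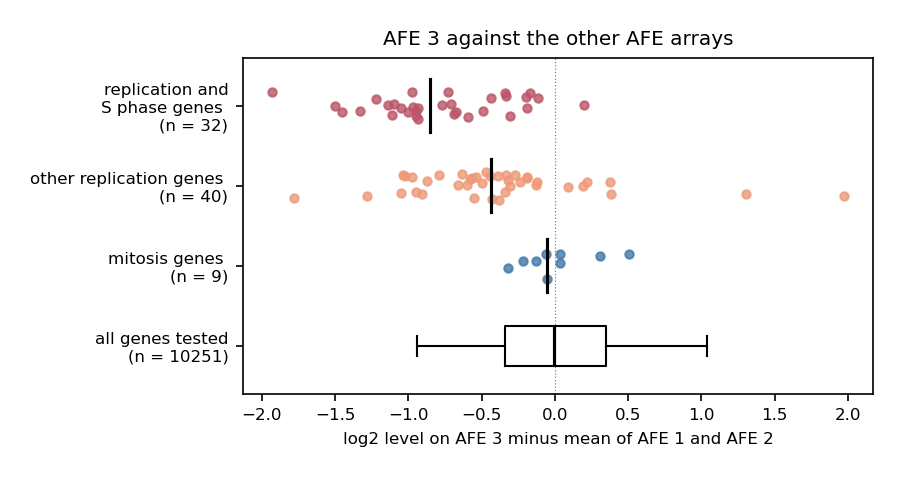
Each point is a gene, placed at its log2 level on AFE 3 minus the mean of AFE 1 and AFE 2, with a vertical bar at the median of its list, and the box for all 10251 genes gives the median, quartiles and the range from the 5th to the 95th percentile. The replication and S phase genes centre on -0.85, other replication genes on -0.44, mitosis genes on -0.06 and all genes near 0.

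**Figure D5:**
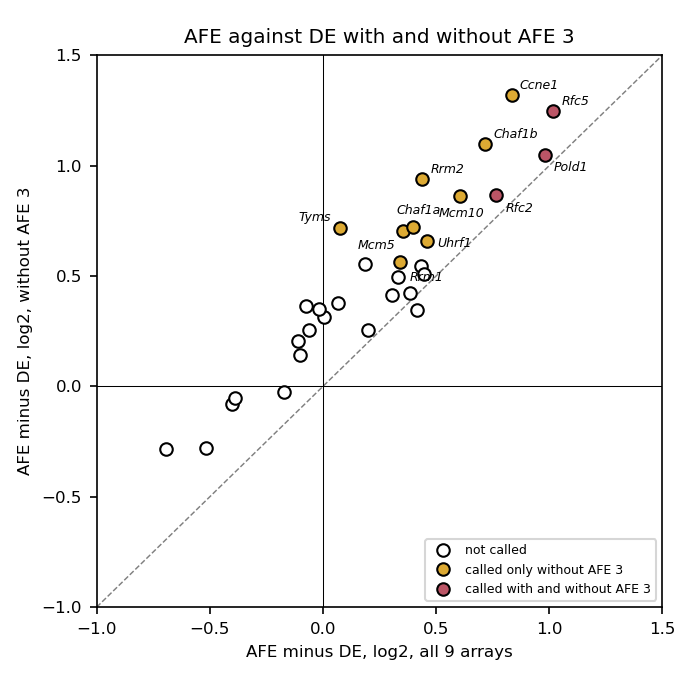
Each point is 1 of the 32 genes, with the log2 difference of AFE minus DE from all 9 arrays on the horizontal axis and without AFE 3 on the vertical axis, and the dashed line marks equal values. All but Orc2 lie above the line, and 9 genes are called without AFE 3 alone.

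Several genes have more than 1 probe, and the brightest was used. For 12 members with several tested probes, none differed in its calls for AFE against DE. For DE against ES, 8 had a probe with another call than the one used, Orc2, Cdc6, Mcm4, Mcm6, Rfc4, Lig1, Ung and Uhrf1, and for AFE against ES 6 had one. Over all 55 probes, 21 were called lower and 1 higher in DE against ES cells. The higher one was a dim Cdc6 probe, above background on 5 arrays, with a difference of 1.47 where another dim Cdc6 probe gave -0.65. For Mcm4, where the brightest probe was not called, 2 dimmer probes were lower in DE at -1.42 and -1.78. With the mean of a gene's probes in place of the brightest, 16 members were lower in DE, adding Mcm4, Mcm6 and Uhrf1.

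Of 47 further replication genes listed, 40 were tested, and in DE against ES cells 23 fell and 2 rose, in AFE against DE 8 rose and 0 fell (14 and 1 at an unadjusted p under 0.05), and in AFE against ES cells 5 rose and 10 fell. Over all genes tested, 21.7% were called lower and 22.2% higher in DE against ES cells, 12.9% higher and 10.1% lower in AFE against DE, and 22.8% higher and 19.3% lower in AFE against ES cells. Without AFE 3, 12 of the partners rose and 1 fell in AFE against DE, and 5 rose and 9 fell in AFE against ES cells. Their medians with all arrays were -0.67, 0.34 and -0.34 in that order. Hat1, an acetyltransferase of new histones, had the largest fall in DE among them, reading 14.57, 14.58 and 14.66 in ES cells, 13.03, 13.02 and 12.86 in DE and 13.64, 13.78 and 13.41 in AFE. It was lower in DE than in ES cells at a log2 difference of -1.63 ± 0.16 (adjusted p = 6.7e-05). Orc5, an ORC subunit, was lower in DE at a log2 difference of -1.46 ± 0.16 (adjusted p = 0.000103) and in AFE at -1.36 ± 0.16 (adjusted p = 0.000157), both against ES cells. Pold2, the partner subunit of Pold1, was lower in DE than in ES cells at -1.40 ± 0.19 (adjusted p = 0.000346) and higher in AFE than in DE by 0.61 ± 0.19 (adjusted p = 0.0414). Set against ES cells, AFE was lower for Dtymk, which makes dTDP for DNA synthesis, at a log2 difference of -1.11 ± 0.24 (adjusted p = 0.00501) and for Tipin, of the fork protection complex, at -1.33 ± 0.24 (adjusted p = 0.0018). Asf1a, a histone chaperone, was higher in DE than in ES cells by 1.02 ± 0.25 (adjusted p = 0.00835), and Orc3 was higher in AFE than in ES cells by 1.08 ± 0.23 (adjusted p = 0.00532). Gmnn, the inhibitor of Cdt1, read 8.15, 8.23 and 7.73 in ES cells, 8.01, 7.51 and 7.33 in DE and 8.19, 8.30 and 7.82 in AFE and was not called in any comparison.

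Of 28 genes listed that control entry into S phase, 24 were tested, and in DE against ES cells 5 fell and 1 rose, in AFE against DE 5 rose and 0 fell (8 and 0 at an unadjusted p under 0.05), and in AFE against ES cells 6 rose and 4 fell. Set against the shares of all genes given for the partners, the falls in DE and the counts in AFE against ES cells lie near the background. Without AFE 3, 5 rose and 0 fell in AFE against DE, and 6 rose and 3 fell in AFE against ES cells. Ccnd1, a cyclin of G1, read 12.75, 12.92 and 13.09 in ES cells, 10.21, 10.18 and 11.44 in DE and 12.79, 12.71 and 11.68 in AFE. It was lower in DE than in ES cells at -2.31 ± 0.39 (adjusted p = 0.00128) and higher in AFE than in DE by 1.78 ± 0.39 (adjusted p = 0.0107). Ccnd2, another G1 cyclin, was higher in AFE by 2.20 ± 0.36 (adjusted p = 0.00286) over DE and 1.46 ± 0.36 (adjusted p = 0.00928) over ES cells. Cdkn1c, an inhibitor of cyclin-dependent kinases, read 10.89, 11.04 and 10.45 in ES cells, 10.01, 10.05 and 13.51 in DE and 13.88, 13.70 and 14.49 in AFE. DE 3 lay far above DE 1 and DE 2, close to the AFE arrays, and Cdkn1c was higher in AFE by 2.84 ± 0.79 (adjusted p = 0.0294) over DE and 3.23 ± 0.79 (adjusted p = 0.00923) over ES cells. Ccna2, the cyclin of S and G2 phase, read 7.50, 7.24 and 6.84 in ES cells, 6.92, 6.60 and 7.19 in DE and 8.07, 8.17 and 8.36 in AFE. It was higher in AFE by 1.30 ± 0.23 (adjusted p = 0.0039) over DE and 1.01 ± 0.23 (adjusted p = 0.00615) over ES cells, and AFE 3, low for most of the replication genes, was the highest array for Ccna2. E2f1, an activator of S phase genes, read 10.36, 10.35 and 10.18 in ES cells, 9.74, 9.80 and 9.62 in DE and 9.83, 10.22 and 9.68 in AFE and was lower in DE than in ES cells at a log2 difference of -0.58 ± 0.18 (adjusted p = 0.0287). E2f5, of the repressor class, was higher in AFE than in ES cells by 1.34 ± 0.31 (adjusted p = 0.00659), and E2f4 was lower at -1.07 ± 0.26 (adjusted p = 0.00966). The inhibitor Cdkn1a was not called in any comparison, with AFE minus DE at 0.61 ± 0.21 (adjusted p = 0.0591), and the probe of Cdkn1b was above background on 2 AFE arrays, 1 DE array and 0 ES arrays. Mitosis genes, tested beside these, were lower in DE than in ES cells for 7 of 9 (21.7% of all genes tested). They were higher in AFE than in DE for 6 of 9 (12.9% of all genes tested). In AFE against ES cells 0 of them were called by limma (1 higher and 1 lower at an unadjusted p under 0.05).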

How the data were processed

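The intensities were deposited as non-normalized data, with a detection p-value beside each. They were taken as linear bead signals, and the detection p-values as setting them against negative control beads, which the headers do not spell out. The way in which the authors made the deposited log2 values of their processed table was not given in the sources used here. Of its 9 columns, 7 rank the probes as their own intensity column does, and the one labelled ES 3 ranks them as ES 2. The one labelled ES 2 matches none. Its rank correlations were 0.925 and 0.926 with DE 1 and DE 2, and 0.880 to 0.887 with the ES arrays. The processed table therefore served only as an alternative. Intensities were background corrected with the detection p-values, offset by 16, quantile normalized and taken to log2 with neqc of limma 3.58.1 (R 4.3.3). A probe was kept if its detection p was under 0.05 on 3 or more of the 9 arrays, the brightest per gene was used, and 10251 genes were tested in a linear model of the 3 groups with eBayes moderation and Benjamini-Hochberg adjustment, after a test on simulated data. Every adjusted p is from that model, errors are SE and n is 3 arrays a group. The number of arrays limits the precision. Members, lists and tests were chosen with earlier results of these data known. Values on every array are given for the most and the least changed member of each function, fixed landmark genes and the members most apart on AFE 3, and other pathway genes are named where called at 2-fold or more, up to 4 a direction. The 22 alternatives changed the background correction, scaling, filter, probe rule, arrays or model. Figures were drawn with matplotlib 3.10.9.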

Additional observations from a re-analysis of the deposited data

How the results depend on the processing

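No direction of a count or median of the replication genes turned under any of the 22 alternatives run. Under median scaling, 1 gene rose in AFE over DE, 0 rose over ES cells, and the median of AFE minus DE was 0.0504; this scaling moved the median of all genes tested to -0.12 for AFE minus DE and 0.10 for DE minus ES. In the authors' processed table, 0 rose in AFE over DE, 3 fell in DE against ES cells, and in AFE against ES cells 0 rose and 2 fell. Without its column ES 2, an alternative chosen after seeing the data, 13 fell in DE against ES cells, 9 fell and 0 rose in AFE against ES cells, and 3 rose in AFE over DE. With only the 6 arrays of a comparison, 1 rose in AFE over DE. On the first slide alone, which leaves out ES 3, 0 rose in AFE over ES cells. Leaving out 1 array at a time, rises in AFE over DE ran from 1 to 12 and falls from 0 to 1, falls in DE against ES cells from 8 to 16, rises in AFE over ES cells from 0 to 3 and falls from 5 to 13, and the median of AFE minus ES from -0.65 to -0.16. The counts for AFE 3 under other settings were chosen after seeing the data. With the replicate number as a block, 2 rose in AFE over DE, 10 fell in DE against ES cells, and 1 rose and 9 fell in AFE against ES cells. In their deviations, same-numbered samples correlated at -0.14 to 0.07 and differently numbered ones at -0.08 to 0.11. These ranges overlap and cannot show whether samples shared a culture or a batch. The number of arrays and, for dim probes such as those of Orc1, Pola1 and Slbp, the signal over background limit what can be called.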

Other observations

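Among the other replication genes, 2 ran against the pattern of AFE 3 by more than 2-fold, chosen after their values were seen. Pold4, the small subunit of polymerase delta, read 6.47 and 6.03 on AFE 1 and AFE 2 and 8.22 on AFE 3. Rrm2b, the form of the small ribonucleotide reductase subunit that works outside S phase, read 6.67 and 7.34 on AFE 1 and AFE 2 and 8.31 on AFE 3.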
